A study of Mus musculus with 6 samples.

Results

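The Wnt genes of the mouse cornea were compared between animals carrying a Pax6 mutation on 1 chromosome and wildtype animals. The genes were chosen by name: all protein-coding genes of the Wnt, frizzled (Fzd), Dickkopf (Dkk), secreted frizzled-related (Sfrp), R-spondin (Rspo), Tcf7 and Axin families, Lgr4 to Lgr6, and 11 further receptors, inhibitors and effectors given by symbol. This gave 60 of the 55421 genes counted, of which 44 had enough counts to be tested. The mice were 20 weeks old. Cornea RNA was sequenced from 3 heterozygous mutant PAX6 samples (M1 to M3) and 3 wildtype samples (W1 to W3), which the submitters call biological replicates. The labels name neither the mutant allele nor the strain, and no other allele or treatment.

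Wnt proteins are secreted, lipid-modified ligands that bind frizzled receptors. With the co-receptors Lrp5 and Lrp6 they keep beta-catenin (Ctnnb1) from being degraded by the Axin complex, so that it can act with TCF/LEF factors in the nucleus, and with other receptors such as Ror1, Ror2 and Ryk they act on cell polarity and calcium without beta-catenin. Sfrp proteins and Wif1 bind Wnts outside the cell, most Dkk proteins block Lrp5 and Lrp6, and R-spondins acting through Lgr receptors keep the ligases Znrf3 and Rnf43 from removing frizzleds. In the ocular surface of the mouse, loss of the antagonist Dkk2 turns corneal epithelium towards epidermis, and Pax6 is a transcription factor needed for corneal epithelial identity.

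The libraries held 16858005 to 21846406 counts in genes, and values per library are given as CPM, the count divided by the TMM-scaled library total and put on the usual per-million scale. A count of 3 in 1 library corresponds to 0.135 to 0.184 CPM. Pax6 itself had 454, 394 and 356 CPM in M1, M2 and M3, against 849, 746 and 774 CPM in W1, W2 and W3 (log2 fold change -0.98 ± 0.14, SE; adjusted p = 0.00421 over all tested genes, edgeR). In a principal component analysis W1 lay apart from the other 5 libraries on the leading axis (122 for W1, -67.2 to 23.2 for the others), and M1 was the only library with a high level of Xist, the RNA of the inactive X chromosome (1140 CPM, against at most 0.681 CPM in any other library). The tissue label was checked with Krt12, the keratin particular to corneal epithelium, which averaged 5237 ± 1673 CPM in mutant and 18455 ± 3233 CPM in wildtype corneas (SD, n = 3).

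Markers of several cell types other than corneal epithelium were present, and the levels of some of them differed between the genotypes. Of 9 corneal epithelial markers measured, 5 fell and 2 rose, and their summed level was 18580 to 25317 CPM in mutant and 37938 to 51874 CPM in wildtype libraries. Of 8 conjunctival markers 6 rose, with sums of 6316 to 7651 CPM in mutant and 393 to 662 CPM in wildtype libraries. Muc5b and Krt8 did not pass. In M1, Muc5ac (9.86 CPM) and Muc5b (15.1 CPM) were far below their levels in M2 and M3. Of 10 stromal keratocyte and fibroblast markers 6 rose, with sums of 5266 CPM in M1, 2245 CPM in M2 and 1190 CPM in M3, against 416 to 604 CPM in wildtype libraries. Leukocyte markers, 3 of 6 of which rose, summed to 133 to 164 CPM in mutant and 39.0 to 64.2 CPM in wildtype libraries. By edgeR 0 of 6 tested corneal endothelial and 0 of 6 vascular and lymphatic markers passed (3 and 2 at an unadjusted p under 0.05; DESeq2 called 0 and 2, limma-voom 1 and 0), and 0 of 5 melanocyte, 3 Schwann cell and neuron, 3 lens and 2 muscle markers (0 of each at an unadjusted p under 0.05, by DESeq2 or by limma-voom). Vascular markers summed to 34.2 to 96.8 CPM in mutant and 1.19 to 33.2 CPM in wildtype libraries, and melanocyte markers to 235 to 413 CPM in mutant and 9.82 to 305 CPM in wildtype libraries. W1 was lowest for both, with Cdh5, Lyve1 and Mlana at 0. In bulk cornea RNA, fewer cells of a type and less RNA per cell cannot be told apart. Nor can more cells of a type be told from a marker rising in cells of another type. The part that cell makeup had in the Wnt results was not tested.

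**Figure D1:**
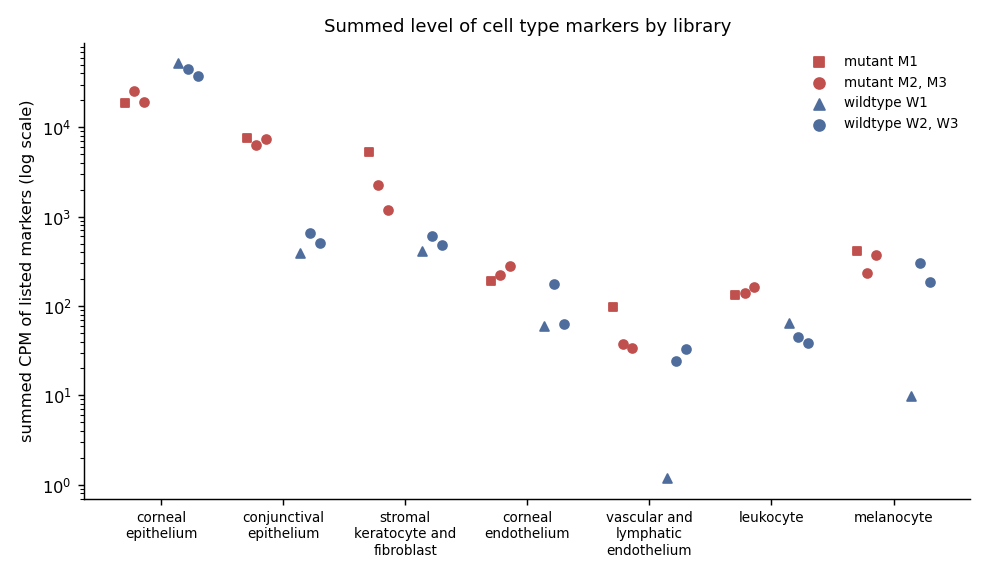
Summed CPM (log axis) of the markers of 7 cell types in each library, mutant libraries in red to the left and wildtype libraries in blue to the right of each pair; M1 is a square and W1 a triangle. Corneal epithelial sums are lower and conjunctival and stromal sums higher in all 3 mutant libraries. M1 has the most stromal marker RNA (5266 CPM), and W1 has little vascular (1.19 CPM) or melanocyte (9.82 CPM) marker RNA.

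Of the 44 tested genes, 9 differed between mutant and wildtype corneas at an adjusted p of 0.05. The ligands Wnt7b, Wnt9a and Wnt3a and the receptors Fzd6 and Fzd5 fell, and the receptors Fzd1, Fzd10 and Ror1 and the antagonist Dkk2 rose. The 9 are 20.5% of the tested members, where 10.1% of all 15209 tested genes passed in either direction. The 4 higher genes are 9.09% of the members, where 5.59% of all tested genes were higher, and the 5 lower genes 11.4%, where 4.46% of all were lower. The median log2 fold change of the 44 members was 0.20, and that of all tested genes 0.01. Mutant and wildtype libraries did not overlap for 20 of the 44 members (45.5%), where this held for 31.9% of all tested genes. Mutant libraries all lay above wildtype libraries for 14 members (31.8%), against 17.1% of all tested genes, and all below for 6 (13.6%), against 14.7%. Passing the low-count filter depends in part on the group where a gene is high, and 6 tested members averaged under 1 CPM in wildtype corneas, so these shares describe the genes measured and no more. All of the 9 genes that passed averaged at least 3.56 CPM in each genotype.

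**Figure D2:**
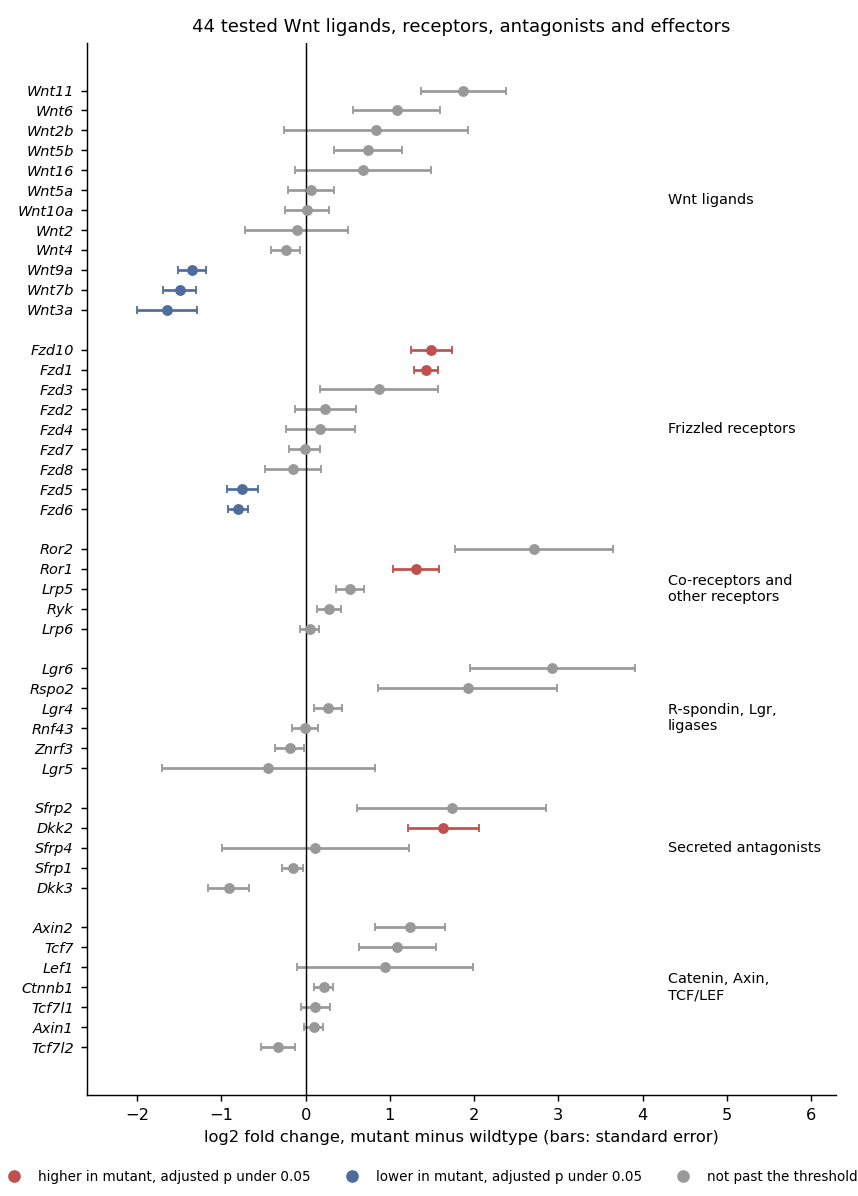
Log2 fold change, mutant minus wildtype, of the 44 tested genes by role, with standard errors; red points are higher and blue points lower at an adjusted p of 0.05. Wnt7b, Wnt9a, Wnt3a, Fzd6 and Fzd5 lie to the left, Fzd1, Fzd10, Ror1 and Dkk2 to the right, and no R-spondin, Lgr, ligase, Axin or TCF/LEF gene passed.

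Among the ligands, 12 of the 19 genes were tested, and the 3 that passed all fell, where 5.59% of all tested genes were higher and 4.46% lower. Of the 12, 7 had a log2 fold change above 0 and 5 below, with a median of 0.04. Mutant libraries lay all above wildtype libraries for 3 ligands and all below for 3. Wnt7b, a ligand made by epithelia of many organs, had 34.0, 36.9 and 23.9 CPM in M1, M2 and M3, against 99.3, 92.4 and 75.6 CPM in W1, W2 and W3. Every mutant library was below every wildtype library. Its means were 31.6 ± 6.85 CPM in mutant and 89.1 ± 12.2 CPM in wildtype corneas (SD, n = 3 each), a log2 fold change of -1.50 ± 0.19 (SE), or 2.82-fold lower, with an adjusted p of 0.00283 in the quasi-likelihood test of edgeR. The gene (ENSMUSG00000022382) lies on the minus strand of chr15:85535437-85582473 of GRCm38.

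Wnt9a, a ligand that acts in joint and skeletal development in the mouse, had 13.3, 13.1 and 11.3 CPM in the mutant libraries and 35.9, 28.1 and 32.3 CPM in the wildtype libraries. The groups did not overlap, and the replicates of each genotype lay close together. Wnt9a fell 2.55-fold (log2 fold change -1.35 ± 0.17, SE; adjusted p = 0.00242, edgeR). Wnt3a, the ligand most used to switch on beta-catenin signalling in culture, had 3.92, 3.88 and 2.88 CPM in mutant and 16.4, 8.91 and 8.18 CPM in wildtype libraries. The groups did not overlap, but W1 stood well above the other wildtype libraries. Wnt3a fell 3.13-fold (log2 fold change -1.65 ± 0.35, SE; adjusted p = 0.0240, edgeR). Its counts were low, 64 to 70 in mutant and 153 to 289 in wildtype libraries. The call of Wnt3a ended without M1 (adjusted p = 0.0752), M2 (0.0813) or M3 (0.109), and without M1 and W1 together (0.0548), by the same test.

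Wnt3a and Wnt9a are neighbours. Wnt3a (ENSMUSG00000009900) lies on the minus strand of chr11:59248033-59290752 and Wnt9a (ENSMUSG00000000126) on the plus strand of chr11:59306928-59333552, so that they point away from each other, with 16175 bases and no annotated gene between them. The ratio of Wnt3a to Wnt9a, each in CPM per kb of exon, was 0.354, 0.358 and 0.309 in M1, M2 and M3 and 0.551, 0.382 and 0.306 in W1, W2 and W3. The ranges of this ratio overlap between the genotypes. The family has 3 more neighbouring pairs with no annotated gene between them. Wnt6 and Wnt10a, 6193 bases apart on chromosome 1, did not pass: Wnt10a averaged 24.4 ± 4.47 CPM in mutant and 24.1 ± 7.83 CPM in wildtype corneas, and Wnt6 2.97 ± 1.10 CPM in mutant and 1.40 ± 0.456 CPM in wildtype corneas (SD, n = 3 each; adjusted p = 0.979 for Wnt10a and 0.254 for Wnt6, edgeR). Of the other pairs, Wnt9b and Wnt1 had no count, Wnt3 had 0 counts over the mutant and 1 over the wildtype libraries, and Wnt10b had 17 over the mutant and 1 over the wildtype libraries.

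The start regions of the Wnt3a and Wnt9a pair are shown with those of a receptor that fell, Fzd5, and the receptor with the smallest p, Fzd1, to set genes that fell beside one that rose. The sequences are RefSeq's for GRCm38.p6, 250 bases before to 50 bases after the start, in the direction of transcription, with CG dinucleotides, the sites of DNA methylation, in capitals.

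Wnt3a (chr11:59290702-59291001, minus strand): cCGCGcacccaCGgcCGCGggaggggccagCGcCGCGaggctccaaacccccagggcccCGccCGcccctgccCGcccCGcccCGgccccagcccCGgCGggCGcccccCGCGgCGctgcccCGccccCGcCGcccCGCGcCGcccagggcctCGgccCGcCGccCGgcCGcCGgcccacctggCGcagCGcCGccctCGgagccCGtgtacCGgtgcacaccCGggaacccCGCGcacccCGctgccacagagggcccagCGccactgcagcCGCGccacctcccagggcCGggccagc

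Wnt9a (chr11:59306680-59306979, plus strand): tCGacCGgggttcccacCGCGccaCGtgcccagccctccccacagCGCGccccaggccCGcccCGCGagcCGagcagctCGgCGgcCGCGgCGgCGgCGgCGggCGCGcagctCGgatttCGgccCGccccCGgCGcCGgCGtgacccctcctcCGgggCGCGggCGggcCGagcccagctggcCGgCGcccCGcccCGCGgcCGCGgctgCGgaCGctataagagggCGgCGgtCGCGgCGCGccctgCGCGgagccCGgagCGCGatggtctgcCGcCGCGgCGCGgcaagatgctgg

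Fzd5 (chr1:64737701-64738000, minus strand): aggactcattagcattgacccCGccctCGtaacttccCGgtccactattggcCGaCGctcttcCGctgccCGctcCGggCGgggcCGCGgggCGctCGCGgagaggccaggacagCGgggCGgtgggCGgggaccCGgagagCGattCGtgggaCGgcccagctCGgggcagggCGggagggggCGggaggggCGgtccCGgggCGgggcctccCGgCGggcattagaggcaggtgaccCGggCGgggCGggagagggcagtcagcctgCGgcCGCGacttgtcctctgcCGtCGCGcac

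Fzd1 (chr5:4758167-4758466, minus strand): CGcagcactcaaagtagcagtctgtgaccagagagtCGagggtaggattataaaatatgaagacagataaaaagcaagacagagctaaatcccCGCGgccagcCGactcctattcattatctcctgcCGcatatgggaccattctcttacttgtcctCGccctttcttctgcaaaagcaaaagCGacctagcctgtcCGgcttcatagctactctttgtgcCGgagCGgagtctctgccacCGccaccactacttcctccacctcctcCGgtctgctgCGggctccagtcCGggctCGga

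These windows held 45 CG sites for Wnt3a, 58 for Wnt9a, 38 for Fzd5 and 16 for Fzd1. The other windows found for genes that passed, all of genes that rose, held 45 for Fzd10, 11 for Dkk2 and 10 for Ror1, so that genes of both directions had dense windows. The median over all 32851 RefSeq promoter windows was 7. Both ligands that lie side by side thus start in sequence dense in CG. RefSeq and GENCODE starts differ for some of these genes. The Fzd1 window lies wholly upstream of the GENCODE gene (chr5:4753839-4758035). The Fzd10 window (chr5:128600856-128601155) lies wholly inside the GENCODE gene (chr5:128600844-128604093). No methylation was measured, and nothing about the cause of a change can be read from the counts of letters.

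Wnt4 was the most abundant ligand in both genotypes. Per kb of exon, the unit that allows levels of different genes to be compared, it averaged 36.4 CPM in mutant and 43.0 CPM in wildtype corneas. It did not pass the threshold (157, 145 and 156 CPM in mutant, 230, 165 and 146 CPM in wildtype libraries; log2 fold change -0.24 ± 0.17, SE; adjusted p = 0.468, edgeR), and the groups overlap. In wildtype corneas the order per kb was Wnt4 (43.0), Wnt7b (18.2 ± 2.49), Wnt10a (9.76 ± 3.17) and Wnt9a (9.63 ± 1.17), followed by Wnt3a (4.04 ± 1.65) and Wnt5a (2.52 ± 0.317, all SD, n = 3). Wnt10a and Wnt9a overlapped in that order, as did Wnt5a with the next, Wnt5b. In mutant corneas Wnt10a (9.87 ± 1.81) stood above Wnt7b (6.45 ± 1.40) with no overlap, and Wnt9a was at 3.77 ± 0.343 (SD, n = 3).

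Of the summed ligand level per kb, Wnt4 made up 54.1 ± 2.74% in mutant and 46.8 ± 3.26% in wildtype corneas and Wnt7b 9.56 ± 2.15% in mutant and 20.1 ± 2.16% in wildtype corneas (SD, n = 3 each). These shares do not depend on how libraries were scaled to each other. The summed CPM of all 19 ligands was 253 to 290 in mutant and 319 to 441 in wildtype libraries.

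The other tested ligands did not pass, and all but Wnt5a were low. Wnt11, which acts on cell movements without beta-catenin, had 5.57, 4.55 and 3.51 CPM in mutant and 0.624, 1.42 and 1.66 CPM in wildtype libraries. These groups do not overlap, but the adjusted p was 0.0531 (edgeR). Wnt11 passed as higher with DESeq2, without a low-count filter and with a filter of 1 CPM in 3 libraries. Of the ligands of polarity signalling, Wnt5a averaged 20.6 ± 7.49 CPM in mutant and 19.7 ± 2.48 CPM in wildtype corneas, and Wnt5b 7.51 ± 1.12 CPM in mutant and 4.48 ± 1.98 CPM in wildtype corneas (SD, n = 3). Wnt2, Wnt2b, Wnt6 and Wnt16 averaged under 3 CPM in either genotype. Wnt1, Wnt7a, Wnt8b and Wnt9b had no count in any library, which allows up to 0.0530 CPM over the mutant and 0.0556 CPM over the wildtype libraries, and Wnt3, Wnt8a and Wnt10b were too low to test.

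**Figure D3:**
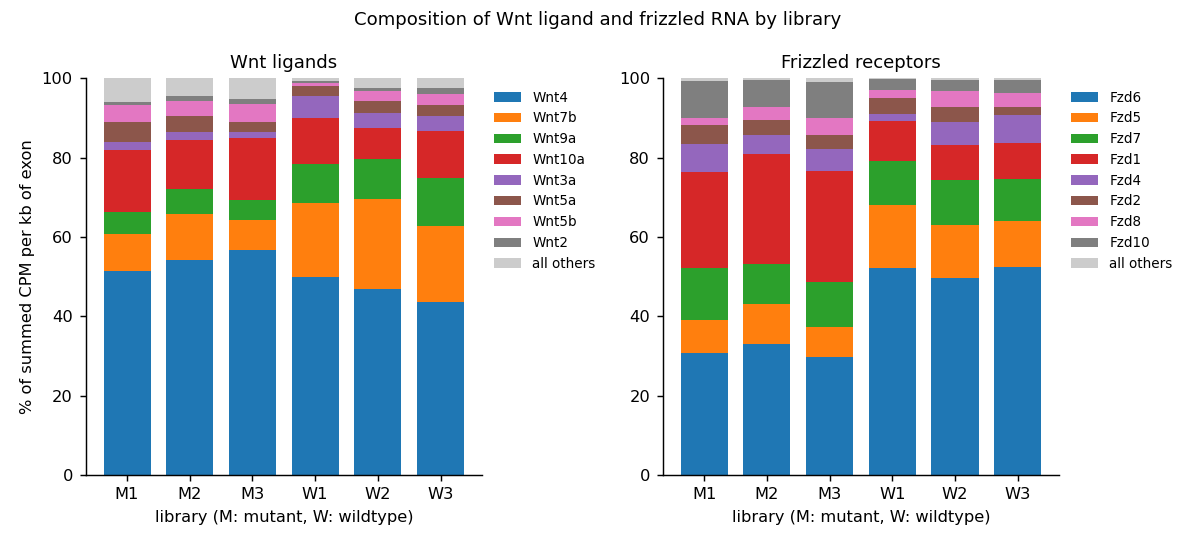
Share (%) of the summed CPM per kb of exon that each ligand (left) and each frizzled (right) takes in the 3 mutant and 3 wildtype libraries. Wnt7b and Wnt9a take less, and Fzd1 and Fzd10 more, of the bar in every mutant library; Fzd6 takes 31.2 ± 1.60% in mutant and 51.4 ± 1.53% in wildtype corneas (SD, n = 3).

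Among the 10 frizzled receptors, 9 were tested, 2 rose and 2 fell, where 5.59% of all tested genes were higher and 4.46% lower. Fzd1 had 62.9, 62.6 and 68.7 CPM in M1, M2 and M3, against 28.0, 22.3 and 21.9 CPM in W1, W2 and W3. The mutant libraries agree closely and lie far above the wildtype libraries. Fzd1 rose 2.69-fold (log2 fold change 1.43 ± 0.14, SE; adjusted p = 0.00114, edgeR), the smallest p among the 44 tested genes. It was as high in M3, which held the least stromal marker RNA of the mutant libraries, as in M1, which held the most. Conjunctival and leukocyte marker sums were higher in each mutant library than in any wildtype library. The part of cell makeup in the level of Fzd1 was not tested. Fzd1 (ENSMUSG00000044674) lies on the minus strand of chr5:4753839-4758035.

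Fzd10 had 19.1, 12.2 and 17.3 CPM in mutant and 6.13, 5.17 and 5.99 CPM in wildtype libraries. It rose 2.81-fold with no overlap (log2 fold change 1.49 ± 0.25, SE; adjusted p = 0.00851, edgeR), and its adjusted p was 0.0508 without M3. Fzd10 (ENSMUSG00000081683) lies on the plus strand of chr5:128600844-128604093.

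Fzd6, which in the mouse aligns hairs and other polarised epithelial structures, had 92.8, 85.6 and 83.8 CPM in mutant and 167, 145 and 146 CPM in wildtype libraries. All mutant libraries were below all wildtype libraries. Fzd6 fell 1.75-fold (log2 fold change -0.80 ± 0.11, SE; adjusted p = 0.00462, edgeR). Fzd6 (ENSMUSG00000022297) lies on the plus strand of chr15:39006034-39038188. Fzd5, a receptor needed for eye development in the mouse, had 36.0, 38.2 and 30.4 CPM in mutant and 72.7, 56.1 and 47.2 CPM in wildtype libraries, without overlap. It fell 1.68-fold (log2 fold change -0.75 ± 0.18, SE; adjusted p = 0.0382, edgeR). Its call ended without M1 (adjusted p = 0.107), M2 (0.0932), M3 (0.160) or W2 (0.0871), and without M1 and W1 together (0.0703). Fzd5 (ENSMUSG00000045005) lies on the minus strand of chr1:64730558-64737751.

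The makeup of the receptor mix followed these changes of single genes. In wildtype corneas Fzd6 stood first per kb (31.7 ± 2.57 CPM per kb), apart from Fzd5 (8.48 ± 1.87), Fzd7 (6.75 ± 0.658) and Fzd1 (5.73 ± 0.822, SD, n = 3), of which neighbours overlapped. In mutant corneas Fzd1 stood second with 15.4 ± 0.824, after Fzd6 with 18.1 ± 0.985 and apart from Fzd7 with 6.71 ± 1.42 (CPM per kb, SD, n = 3). The level of Fzd1 over that of Fzd6 was 0.778, 0.840 and 0.941 in M1, M2 and M3 and 0.193, 0.176 and 0.172 in W1, W2 and W3. That of Fzd10 over Fzd5 was 1.13, 0.679 and 1.21 in the mutant libraries and 0.179, 0.196 and 0.270 in the wildtype libraries. Neither ratio overlapped between genotypes. This follows from setting a gene that rose without overlap over a gene that fell without overlap, and adds no evidence to the single genes. The ratios do not depend on scaling between libraries. As shares of all frizzled RNA per kb, Fzd1 made up 26.6 ± 2.26% in mutant and 9.27 ± 0.699% in wildtype corneas, and Fzd10 8.50 ± 1.34% in mutant and 2.88 ± 0.285% in wildtype corneas (SD, n = 3). The summed frizzled level was 260 to 300.0 CPM in mutant and 296 to 334 CPM in wildtype libraries, ranges that overlap.

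The remaining frizzleds did not pass. Fzd7 averaged 30.4 ± 6.45 CPM in mutant and 30.6 ± 2.98 CPM in wildtype corneas (SD, n = 3), with a log2 fold change of -0.01 ± 0.18 (SE). Fzd4, the receptor for norrin in blood vessels, had 29.6, 17.4 and 21.2 CPM in mutant and 8.45, 23.8 and 28.1 CPM in wildtype libraries, lowest in W1, where vascular markers were also lowest; their part in this was not tested. Fzd2, Fzd3 and Fzd8 had adjusted p of 0.515 to 0.840 (edgeR), and Fzd9 held 3 counts in mutant and none in wildtype libraries.

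**Figure D4:**
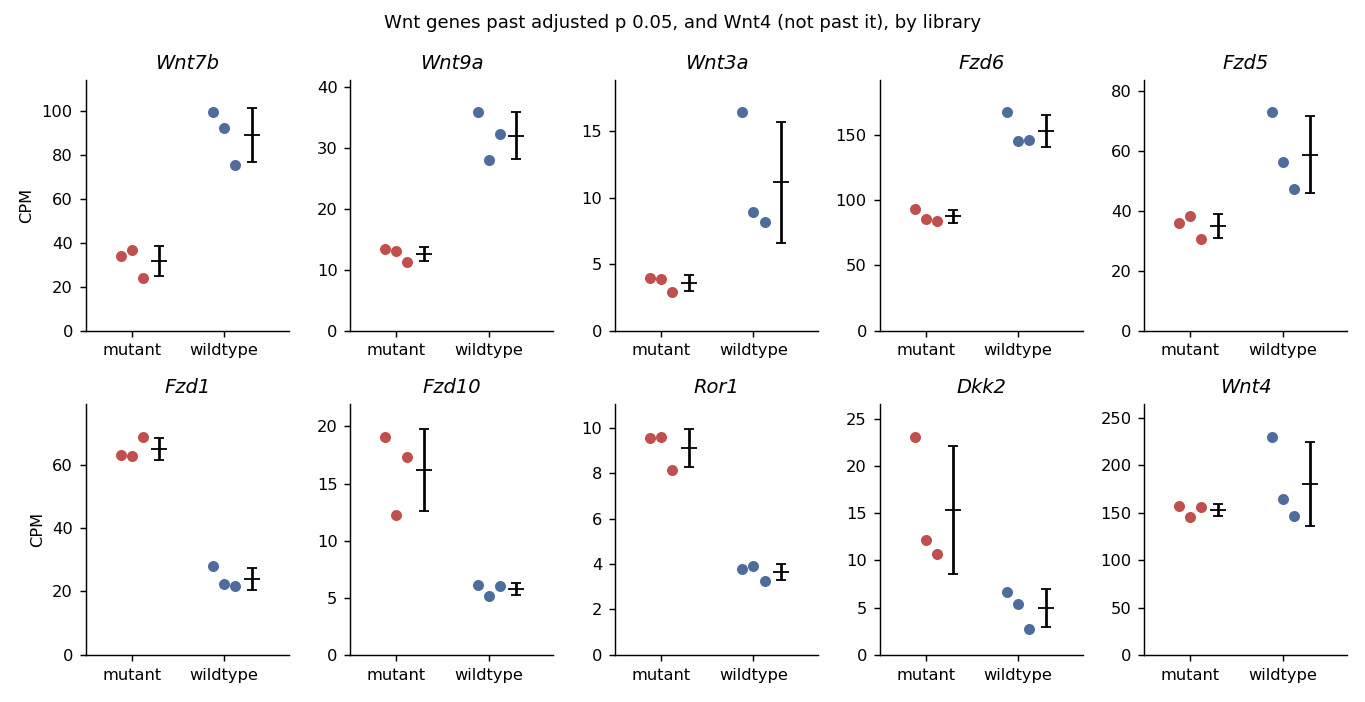
CPM of the 9 Wnt genes that passed the threshold and of Wnt4, which did not, in each library (red mutant, blue wildtype; black bars are means ± SD, n = 3; axes start at 0). In the 9 genes no mutant point reaches the range of the wildtype points, whereas the Wnt4 points overlap.

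Of the 5 co-receptors and alternative receptors 1 passed by edgeR, where 10.1% of all tested genes passed in either direction. At an unadjusted p under 0.05 there were 3, DESeq2 called 3 (Ror1, Ror2 and Lrp5), and limma-voom 1. Ror1, a receptor tyrosine kinase-like protein that binds Wnt5a, had 9.55, 9.60 and 8.15 CPM in mutant and 3.80, 3.92 and 3.26 CPM in wildtype libraries. The replicates lie close together within each genotype and far apart between them. Ror1 rose 2.48-fold (log2 fold change 1.31 ± 0.27, SE; adjusted p = 0.0208, edgeR). With counts of 61 to 181 per library, it no longer passed when M1 was left out (adjusted p = 0.0809, edgeR), nor without M2 (0.0912), M3 (0.0802), W2 (0.0551), W3 (0.0648), or M1 and W1 together (0.0567), while its log2 fold change stayed between 1.21 and 1.38 over all 16 alternatives. Ror1 (ENSMUSG00000035305) lies on the plus strand of chr4:100095791-100444765.

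Its relative Ror2 had 4.28, 1.39 and 1.26 CPM in mutant and 0.284, 0.0568 and 0.695 CPM in wildtype libraries, highest in M1 (adjusted p = 0.117, edgeR). Lrp5 had 153, 113 and 128 CPM in mutant and 109, 82.9 and 81.3 CPM in wildtype libraries, without overlap. Its log2 fold change was 0.53 ± 0.17 (SE) and its adjusted p 0.0909 (edgeR), and it passed in 5 of 16 alternatives. Its partner Lrp6 averaged 136 ± 11.3 CPM in mutant and 132 ± 5.35 CPM in wildtype corneas (SD, n = 3; log2 fold change 0.05 ± 0.11, SE). Ryk averaged 41.4 ± 4.19 CPM in mutant and 34.2 ± 3.26 CPM in wildtype corneas (SD, n = 3; adjusted p = 0.287, edgeR).

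Of the 10 secreted antagonists, 5 were tested and 1, Dkk2, passed, where 10.1% of all tested genes passed in either direction. Dkk2, which binds Lrp5 and Lrp6, had 23.1, 12.2 and 10.7 CPM in M1, M2 and M3, against 6.70, 5.39 and 2.73 CPM in W1, W2 and W3. The groups did not overlap, and M1, the library richest in stromal markers, was highest. The part of stromal RNA in this was not tested. Dkk2 rose 3.10-fold (log2 fold change 1.63 ± 0.42, SE; adjusted p = 0.0465, edgeR). The call ended without M1 (adjusted p = 0.169), M2 (0.0974), M3 (0.0849), W2 (0.110) or W3 (0.0959), and without M1 and W1 together (0.0589), by the same test. Dkk2 (ENSMUSG00000028031) lies on the plus strand of chr3:132085292-132180304.

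Dkk3, a divergent family member, and Sfrp1 together made up most of the antagonist RNA. Dkk3 had 196, 117 and 240 CPM in mutant and 311, 372 and 359 CPM in wildtype libraries, without overlap. Its log2 fold change was -0.91 ± 0.24 (SE) and its adjusted p 0.0512 (edgeR), just outside the threshold as Dkk2 was just inside it, and it was below 0.05 in 9 of 16 alternatives. Sfrp1 averaged 230 ± 25.2 CPM in mutant and 256 ± 10.1 CPM in wildtype corneas (SD, n = 3; log2 fold change -0.16 ± 0.12, SE). Per kb, Dkk3 (103 ± 9.49) stood above Sfrp1 (58.6 ± 2.31) in all wildtype libraries, while in mutant libraries the levels of Dkk3 (54.9 ± 18.6) and Sfrp1 (52.6 ± 5.77, CPM per kb, SD, n = 3) overlapped.

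The remaining antagonists were far lower. Sfrp2 had 15.7, 15.9 and 2.43 CPM in mutant and 0.0567, 7.32 and 2.83 CPM in wildtype libraries, ranges that overlap (adjusted p = 0.410, edgeR). Sfrp4 averaged 0.777 CPM in mutant and 0.716 CPM in wildtype corneas, and Wif1, Frzb, Dkk1, Sfrp5 and Dkk4 were not tested. Sfrp5 held no count in mutant libraries and 0, 16 and 12 counts in W1, W2 and W3, and Dkk4 had no count at all.

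Of the R-spondin, Lgr and ligase group, 0 of 6 tested genes passed by edgeR (1, Lgr6, at an unadjusted p under 0.05; DESeq2 called 1 and limma-voom 0). Lgr4 was the Lgr receptor with the highest level, 73.3 ± 10.3 CPM in mutant and 61.0 ± 10.5 CPM in wildtype corneas, followed per kb by the ligases Rnf43 (35.5 ± 4.76 CPM in mutant and 35.7 ± 4.39 CPM in wildtype) and Znrf3 (24.3 ± 1.23 CPM in mutant and 27.7 ± 5.16 CPM in wildtype; all SD, n = 3). The log2 fold changes of these genes were 0.27 ± 0.17, -0.01 ± 0.16 and -0.19 ± 0.17 (SE). Lgr6, a stem cell marker of mouse skin, had 2.02, 1.17 and 2.07 CPM in mutant and 0.0567, 0.568 and 0.0535 CPM in wildtype libraries. These groups do not overlap, at 12 counts over the wildtype libraries, and the adjusted p was 0.107 (edgeR). Lgr5 was at 0.270 to 1.29 CPM in mutant and 0 to 1.44 CPM in wildtype libraries. The R-spondin ligands were scarce: Rspo2 averaged 1.48 ± 0.667 CPM in mutant and 0.383 ± 0.353 CPM in wildtype corneas (SD, n = 3; adjusted p = 0.325, edgeR), and Rspo1, Rspo3 and Rspo4 were too low to test.

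Of the 7 genes that act inside the cell, 0 passed by edgeR (2, Axin2 and Tcf7, at an unadjusted p under 0.05). DESeq2 called 1, Axin2, and limma-voom 0. Of the 7, 6 had a log2 fold change above 0 and 1 below. Mutant libraries all lay above wildtype libraries for 3, Ctnnb1, Axin2 and Tcf7, where this held for 17.1% of all tested genes. Beta-catenin (Ctnnb1), the transducer of the pathway and also a part of cell junctions, had 397, 427 and 442 CPM in mutant and 360, 389 and 342 CPM in wildtype libraries (log2 fold change 0.21 ± 0.12, SE; adjusted p = 0.316, edgeR). Axin1, a scaffold of the degradation complex, averaged 57.4 ± 0.522 CPM in mutant and 53.7 ± 3.70 CPM in wildtype corneas (SD, n = 3). Axin2, a scaffold that is itself a common target of beta-catenin, had 29.4, 16.4 and 22.8 CPM in mutant and 4.09, 12.9 and 12.1 CPM in wildtype libraries. The groups do not overlap, with W1 lowest, but the adjusted p was 0.111 (edgeR). Tcf7l1 and Tcf7l2 were the TCF/LEF genes with the highest levels per kb, and their log2 fold changes were 0.12 ± 0.17 and -0.33 ± 0.20 (SE). Tcf7 averaged 5.08 ± 2.03 CPM in mutant and 2.39 ± 0.770 CPM in wildtype corneas, and Lef1 2.61 ± 1.82 CPM in mutant and 1.35 ± 1.31 CPM in wildtype corneas (SD, n = 3; adjusted p = 0.195 for Tcf7 and 0.651 for Lef1, edgeR).

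Other genes of the pathway were taken from lists of general knowledge. Of 21 textbook targets of beta-catenin, some of them among the genes above, 19 were tested, 1 rose and 2 fell, against 5.59% higher and 4.46% lower over all tested genes. Ccnd1, the G1 cyclin D1, had 145, 176 and 150 CPM in mutant and 336, 283 and 225 CPM in wildtype libraries (log2 fold change -0.84 ± 0.17, SE; adjusted p = 0.0180). Cd44, the hyaluronan receptor, fell 1.91-fold (-0.93 ± 0.21; adjusted p = 0.0304). Apcdd1, a membrane inhibitor of Wnt signalling, rose 2.70-fold (1.43 ± 0.35; adjusted p = 0.0400). The few targets that passed thus did not all move in 1 direction. Axin2, Tcf7 and Tnfrsf19 were 2.35-, 2.13- and 2.39-fold higher but did not pass (adjusted p = 0.111, 0.195 and 0.202, edgeR). Myc, Sox9, Nkd1, Notum and Bambi did not pass either (adjusted p = 0.223 to 0.938, edgeR). Of the 19 tested targets, 11 had a log2 fold change above 0 and 8 below, with a median of 0.18. The summed target level, in which Ccnd1 and Cd44 were the most abundant, was 620 to 690 CPM in mutant and 829 to 1167 CPM in wildtype libraries.

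Of 49 other pathway genes found, 45 were tested, 2 rose and 5 fell, where 5.59% of all tested genes were higher and 4.46% lower. Apcdd1 rose, as did Tspan12, a partner of Fzd4 in norrin signalling, with 20.3, 13.8 and 21.5 CPM in mutant and 0.794, 4.54 and 3.42 CPM in wildtype libraries (6.34-fold; adjusted p = 0.0198). Those that fell were Dact2, a Dishevelled-binding protein (2.11-fold, adjusted p = 0.00935), the tankyrase Tnks2, which marks Axin for degradation (1.45-fold, 0.0219), Ctnnbip1, an inhibitor of the binding of beta-catenin to TCF (1.89-fold, 0.0247), the co-repressor Tle4 (1.42-fold, 0.0307) and the casein kinase Csnk1g3 (1.36-fold, 0.0439; all edgeR). Their median log2 fold change was 0.03.

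Of 32 genes of planar polarity, calcium signalling and the glypicans, 28 were tested, 3 rose and 3 fell, beside the same shares of all tested genes (5.59% higher, 4.46% lower). Prickle2, of the planar polarity machinery, fell to 27.7, 31.3 and 18.6 CPM in mutant libraries, against 105, 89.2 and 104 CPM in wildtype libraries (3.85-fold; log2 fold change -1.95 ± 0.20, SE; adjusted p = 0.00128, edgeR). The transcription factor Nfatc2 fell 2.06-fold (adjusted p = 0.0108, edgeR). The glypicans, cell-surface proteoglycans that hold Wnts, did not move together. Gpc3 rose 2.91-fold (adjusted p = 0.0139, edgeR) and Gpc4 2.09-fold (0.0223), and Gpc6 fell 1.89-fold (0.0309). Gpc3 and Gpc4 lie on the X chromosome and were highest in M1 (62.6 and 32.1 CPM), the only library with a high level of Xist. The part of this in their rise was not tested. The median log2 fold change of the 28 was -0.03. Of the genes named from these 3 lists, Prickle2 and Dact2 passed with any single library left out. The call of a gene ended without any 1 of the mutant libraries for Tspan12, Tnks2, Ctnnbip1, Tle4, Csnk1g3, Apcdd1 and Gpc4, without W2 for Tnks2, Ctnnbip1, Tle4, Csnk1g3 and Apcdd1, and without W3 for Tnks2, Csnk1g3 and Apcdd1. It ended without M1, M3 or W2 for Ccnd1 and Cd44, without M1 or M3 for Gpc3, without M2, M3 or W2 for Gpc6 and without M3 for Nfatc2. Over all alternatives the highest adjusted p of these genes ran between 0.0607 for Nfatc2 and 0.160 for Csnk1g3. With 1 library left out, the number of targets that passed was 0 to 2 in each direction, and that of the other pathway genes 0 to 4 higher and 1 to 5 lower.

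**Figure D5:**
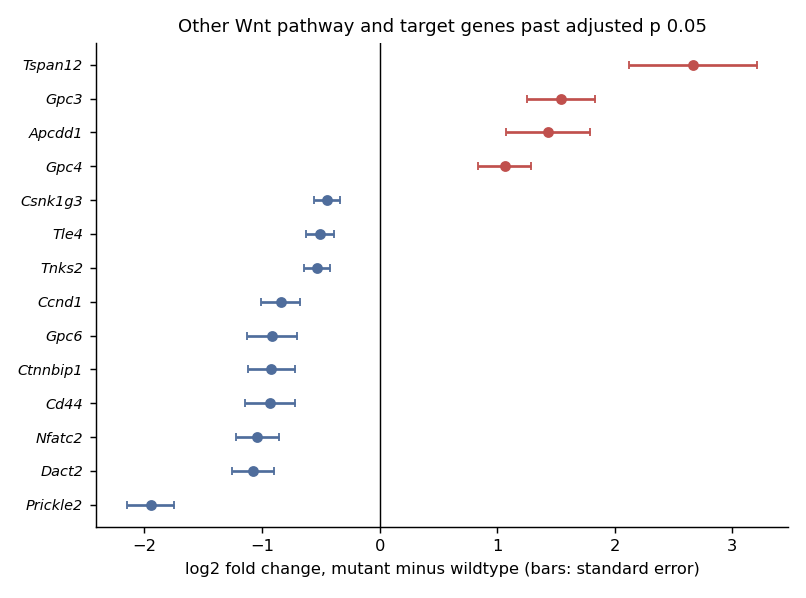
Log2 fold change, mutant minus wildtype, of 14 pathway, polarity and target genes outside the 60 Wnt genes that passed an adjusted p of 0.05, with standard errors (red higher, blue lower). Tspan12 rose most and Prickle2 fell most among these 14.

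Exons of 11 of the 60 Wnt genes overlap a gene on the opposite strand, among them 3 of the 9 that passed, and no source used here gives the strand option of the counting. The partners were low: AU022754 beside Wnt7b held 4 to 32 counts per library, Gm38058 beside Fzd5 0 to 11 and Gm26704 beside Fzd6 2 to 12. Counts of these genes, and of Ccnd1 (opposite LTO1, 173 to 289 counts), Axin2, Ctnnb1, Ctnnbip1, Dact2, Lef1, Rspo3, Sfrp2, Tcf7l1, Tspan12, Wnt5a and Wnt11, are uncertain in the shared bases. The counts of the partners do not bound this, since reads in shared bases may have been left out of both genes. Wnt7b, Wnt9a, Fzd6 and Fzd1 passed in each of the 16 alternatives tried, whereas leaving out 1 library left 1 to 5 of the 60 genes higher (1 without M3, 5 without W1) and 3 to 7 lower (3 without M1 or M2, 7 without W1).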

How the data were processed

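RNA of corneas was sequenced as paired reads of 100 nucleotides from stranded total RNA libraries, per the labels' protocols. The deposited files hold raw counts per Ensembl gene made by the authors, 1 file per library. Trim Galore, HISAT2, SAMtools, HTSeq and edgeR on GRCm38 are named in the submitters' processing notes; their versions, settings and strand option are given in no source used here. The 5 summary lines (not aligned 30.1%, no feature 16.3%, not unique 3.50%, low quality 2.75%, ambiguous 0.679% of all lines) were left out.

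Symbols, positions and exon lengths came from GENCODE M21 (GRCm38), which matched 55240 of 55421 IDs. RefSeq promoter windows matched 41 of the 60 members. Counts were filtered with filterByExpr (minimum count 10, total 15), scaled by TMM and tested with edgeR 4.0.16 in R 4.3.3 by the quasi-likelihood F test with genotype as the only term and Benjamini-Hochberg adjustment over 15209 genes at 0.05. CPM per kb divides by the exon union length. Floors (3 counts) cover counting error only. Counts of replicate pairs differed well beyond sampling noise (chi-square over degrees of freedom 19.6 to 59.6), so each library counted as 1 replicate. The p-values weigh the difference between genotypes against the spread between these samples, which the test estimates in part from all genes.

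Named are all members past the threshold, per role the 3 most abundant and the 2 of smallest p, further members chosen after their values were seen, and up to 8 past the threshold of each of 3 lists; of the lists, Krt3 and Tle5 matched no gene, and 1 gene that passed is counted but not reported here. Members, lists and tests were chosen with earlier results of these data known. In 3 simulated sets with 200 of 15209 genes changed, 23.2% of 2-fold and 59.8% of 4-fold changes were called, with 5.75% false calls. In the data 1529 genes passed, and the adjustment depends on how many genes change. The simulated shares are therefore not those of the real comparison. Alternatives were RLE, upper-quartile and no factors, DESeq2 1.42.0, limma-voom (limma 3.58.1), no filter, 1 CPM in 3 libraries, mitochondrial and structural RNA genes removed, an adjusted p of 0.01, each library left out, and, added after seeing the data, M1 and W1 left out together.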

Additional observations from a re-analysis of the deposited data

How the results depend on the processing

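Of the 44 tested Wnt genes, 4 were higher and 5 lower. The number higher was 9 with DESeq2, 9 without a low-count filter and 2 at an adjusted p of 0.01, and the number lower was 3 at an adjusted p of 0.01 and 3 without M1 and W1 together. With 1 library left out it was 1 to 5 higher and 3 to 7 lower. Other pathway genes higher (2) numbered 5 with DESeq2, 6 without a filter and 0 at 0.01 (0 to 4 with 1 library left out), and those lower (5) numbered 1 at 0.01 (1 to 5). Polarity, calcium and glypican genes higher (3) numbered 5 with DESeq2, 5 with limma-voom, 7 without a filter and 1 at 0.01 (1 to 5), and those lower (3) 5 without a filter and 1 at 0.01 (1 to 4). Targets higher (1) numbered 0 without composition factors, 2 with DESeq2, 3 without a filter and 0 at 0.01 (0 to 2), and those lower (2) 0 at 0.01 (0 to 2). Over all genes, 850 were higher and 679 lower, against 1325 and 1033 with DESeq2, 1588 and 1137 without a filter and 307 and 261 at 0.01 (340 to 1227 higher and 271 to 847 lower with 1 library left out). The other settings kept each count within 1.5 times. No named gene that passed changed direction in any of the 16 alternatives, and scalings moved the median of all genes by at most 0.04 on the log2 scale. A stricter limit lowers the counts by construction. Leaving out a library did not always lower them: without W1, 1227 of all genes were higher and 847 lower. The cause of the shifts at settings other than the stricter limit was not tested. Counts per library were 61 to 181 for Ror1, 51 to 377 for Dkk2, 64 to 289 for Wnt3a, 91 to 385 for Fzd10 and 588 to 1281 for Fzd5, the genes whose calls ended with a library left out; the part of depth in this was not tested. No paired analysis was possible because the labels give no shared replicate numbers across the genotypes.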

Other observations

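RefSeq promoter windows were found for 7 of the 9 Wnt genes that passed the threshold. Their GC content was 86.3% for Wnt3a, 83.3% for Wnt9a and 75.7% for Fzd5, which fell, and 54.0% for Fzd1, 57.7% for Dkk2, 62.3% for Ror1 and 77.7% for Fzd10, which rose; the median over all 32851 windows was 52.7%. These are values of 7 genes, with no test.

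The windows of the 41 matched members were searched on both strands for 4 short motifs: TTCACGC, a part of the site read by the Pax6 paired domain, the palindromic P3 site of paired-type homeodomains, and ATCAAAG and TTCAAAG, forms of the TCF/LEF site. ATCAAAG and TTCAAAG differ only in their first letter and cannot match at the same place. Among all windows they were present in 1.26%, 0.487%, 3.73% and 5.14%. Among the members, TTCACGC and the P3 site were in 0 windows, ATCAAAG was in a window of 2 genes (Wnt5b and Wnt11) and TTCAAAG in that of 1 gene (Dkk1), and none of these genes passed the threshold. An absent match says only that these letters are not in the window.

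W1 was the lowest of the 6 libraries for 14 of the 44 tested Wnt genes (31.8%), Fzd4, Axin2 and Sfrp2 among them, where this held for 28.4% of all tested genes.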
